A study of Mus musculus with 6 samples.

Results

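The genes described here were 10 members of the early transcriptional response: the Fos family (*Fos*, *Fosb*, *Fosl1*, *Fosl2*), the Jun family (*Jun*, *Junb*, *Jund*), the related factor *Atf3*, and the feedback regulators *Dusp1* and *Zfp36*. Every probe that was no control and whose gene name on the array was exactly one of these symbols was taken, which gave 11 probes of 55681, for 10 of 36163 gene names. RNA was measured in hearts of male C57BL/6 mice that from 4 weeks of age received standard chow (normal diet, ND) or a high fat diet (HFD, 60% of kcal from fat) over 4 months. There were 3 ND and 3 HFD hearts, each on its own array labelled with the dye Cy3, and the comparison asks what the diet changed in cardiac RNA. Both groups shared strain, sex, tissue and the length of feeding, and the labels name no transgene or drug. The labels number the 3 samples of a diet without stating litters or cages, so that errors and p-values describe the spread between these samples. The set was selected on the HFD minus ND differences of these same arrays, which were known when it was drawn up, so their differences are given as a description without a test.

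Fos and Jun proteins carry a basic DNA-binding region next to a leucine zipper, and pair through the zipper into the AP-1 complex. Jun proteins can pair with each other or with a Fos protein, whereas Fos proteins need a Jun partner. *Fos*, *Fosb*, *Junb*, *Atf3*, *Dusp1* and *Zfp36* are immediate early genes, whose RNA is made within minutes of a growth factor, hormone or stress signal and is short-lived. *Dusp1* encodes a phosphatase that switches off MAP kinases, and *Zfp36* encodes tristetraprolin, which binds AU-rich elements in short-lived mRNAs and leads to their decay, so that both act as brakes on the response. In heart muscle these genes are known to respond to stretch, catecholamines and injury. They also respond to handling of tissue at collection.

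The regions just upstream of the genes were read from the RefSeq promoter table (GRCm38.p6) to show what the members share in sequence. A window was present for 9 of the 10 genes, and *Fosl1* had none. In the 250 bases before the annotated start, on both strands, 5 motifs were searched by their letters: the core of the cyclic AMP response element (CRE, TGACGT), the AP-1 site (TGANTCA), the CArG box bound by serum response factor, the TATA box (TATAA) and the GC box (GGGCGG). The CRE core was found in 3 of 9 member windows, those of *Fos*, *Atf3* and *Dusp1*, against 6.47% of all 32851 windows. The sequences of these 3 genes are shown because they hold the CRE core, and that of *Zfp36* because it holds the only CArG box among the member windows. Each runs 5′ to 3′ on the strand of the gene and ends at the base before the start, and capitals mark the CRE core, the TATA box and the CArG box, not the GC boxes:

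Fos: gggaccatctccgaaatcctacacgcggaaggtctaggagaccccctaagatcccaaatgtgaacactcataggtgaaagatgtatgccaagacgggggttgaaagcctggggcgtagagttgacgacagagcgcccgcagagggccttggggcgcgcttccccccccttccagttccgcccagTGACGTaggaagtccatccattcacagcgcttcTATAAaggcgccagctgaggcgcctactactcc
Atf3: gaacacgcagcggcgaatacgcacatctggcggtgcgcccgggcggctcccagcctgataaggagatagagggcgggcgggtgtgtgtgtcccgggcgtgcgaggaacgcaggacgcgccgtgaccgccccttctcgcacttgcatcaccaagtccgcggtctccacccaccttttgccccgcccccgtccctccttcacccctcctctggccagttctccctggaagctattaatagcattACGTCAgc
Dusp1: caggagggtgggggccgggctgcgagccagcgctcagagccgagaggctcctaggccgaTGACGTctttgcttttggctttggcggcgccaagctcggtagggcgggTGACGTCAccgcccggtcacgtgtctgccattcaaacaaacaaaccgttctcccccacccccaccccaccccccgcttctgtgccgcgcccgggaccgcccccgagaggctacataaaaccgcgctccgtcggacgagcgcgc
Zfp36: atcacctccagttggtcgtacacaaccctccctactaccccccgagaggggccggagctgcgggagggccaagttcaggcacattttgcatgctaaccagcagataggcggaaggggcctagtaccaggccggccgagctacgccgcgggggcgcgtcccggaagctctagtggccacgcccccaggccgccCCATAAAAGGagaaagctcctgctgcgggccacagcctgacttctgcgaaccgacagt

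In *Fos* (chr12:85473640-85473889, plus strand) the CRE core lay at positions -66 to -61 from the start and the TATA box at -33 to -29. In *Atf3* (chr1:191183334-191183583, minus strand) the CRE core was read on the opposite strand at -8 to -3. In *Dusp1* (chr17:26508473-26508722, minus strand) it was matched 3 times, at -191 to -186, -143 to -138 and -141 to -136, and the last 2 matches overlap because the palindromic site reads the same on both strands. In *Zfp36* (chr7:28379229-28379478, minus strand) a CArG box lay at -58 to -49, sharing 1 base with a GC box, and this motif was held by 1.47% of all windows. The TATA box, held by 22.8% of windows, was found in *Fos* alone among the members. The AP-1 site as spelled above was in no member window and in 6.75% of all windows. Other spellings of a motif and sites further upstream were not searched. The GC box was in 7 member windows and in 32.7% of all, and *Junb* and *Jund* held none of the 5 motifs in this stretch. The *Fosb* window ends just before a transcript start that lies inside the RefSeq span of the gene. A match describes letters only, and binding was not measured here.

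Levels are given as log2 intensity relative to the 75th percentile of the same array, so that 0 marks a probe as bright as that percentile. Levels of different probes cannot be compared with each other. The 6 arrays lay on 1 slide, and 49.2% to 53.0% of their probes were well above background, with no saturated spot. HFD 1 and HFD 2 were on row 1 of the slide, and HFD 3 and all ND hearts on row 2. The 8 cardiomyocyte markers were well above background on all arrays, with a summed linear level of 3544 to 3614 in ND and 3160 to 3807 in HFD hearts. Because heart tissue was measured in bulk, fewer cells of a type and less RNA per cell cannot be told apart.

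*Fos*, which encodes the founding subunit of AP-1, had the widest gap between the diets among the members. Its probe A_52_P262219 (mm9 chr12:86817900-86817959, plus strand) was printed at 10 spots per array. The intensity was 122, 151 and 83.7 in ND 1, 2 and 3, and 446, 666 and 453 in HFD 1, 2 and 3. Every HFD heart was above every ND heart, HFD 2 was the highest and ND 3 the lowest. After scaling, the level was -2.07 ± 0.42 in ND and 0.03 ± 0.46 in HFD hearts (SD, n = 3), a log2 difference of 2.09 (SE 0.30) or 4.26-fold. The lowest HFD heart stood 1.42 log2 units above the highest ND heart.

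The repeated spots of the *Fos* probe show how far the hearts lay apart against the error within an array. Spots ranged from 113 to 134 in ND 1, from 133 to 170 in ND 2 and from 74.8 to 91.4 in ND 3. In HFD 1, 2 and 3 they ranged from 392 (the spot with an outlier mark) to 480, from 608 to 722 and from 413 to 495. No spot of an HFD heart was as dim as any spot of an ND heart. The coefficient of variation over spots was 4.93% to 7.98%, against a median of 3.67% over the 399 probes printed at 5 or more spots. The spread among hearts of the same diet was thus wider than the spread among spots of the same heart, and the 1 *Fos* spot with an outlier mark of the scanner software was left out of the levels.

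**Figure D1:**
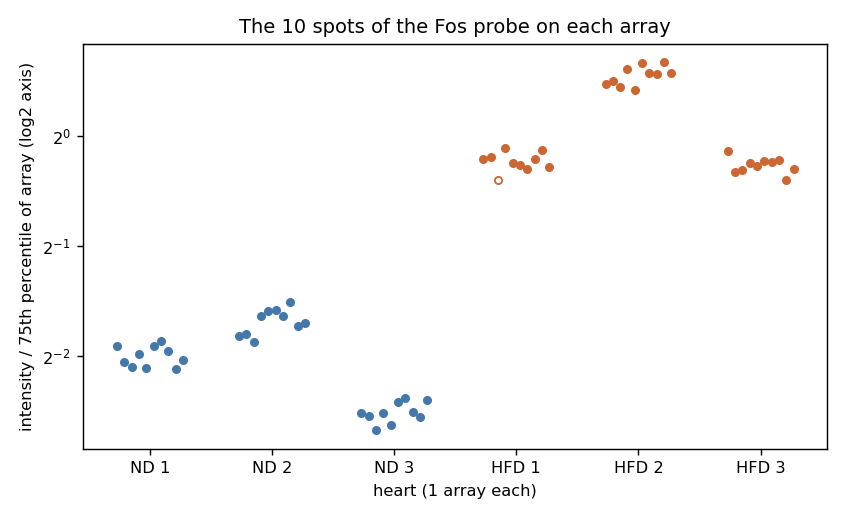
Intensity of each spot of the *Fos* probe on each array (y axis, intensity divided by the 75th percentile of the array, log2 axis; x axis, the 3 ND and 3 HFD hearts); points are spots and the open point is the spot left out. The spots of every HFD heart lie above those of every ND heart, with intensities from 392 in HFD and up to 170 in ND hearts before the division.

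*Fosb* encodes a Fos protein that, like *Fos*, is made in the first wave of the response. The level of A_55_P2113051 (mm9 chr7:19888168-19888227, minus strand) was -2.77, -2.30 and -3.43 in ND 1, 2 and 3, and -1.46, -1.57 and -2.62 in HFD 1, 2 and 3. HFD 1 and HFD 2 were above all ND hearts, but HFD 3 was below ND 2. The means were -2.83 ± 0.57 and -1.88 ± 0.64 (SD, n = 3), a log2 difference of 0.95 (SE 0.41) or 1.93-fold, with overlapping groups.

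*Fosl1*, which encodes the Fos protein Fra-1, was near the background. Its probe A_51_P308796 (mm9 chr19:5455496-5455555, plus strand) had an intensity of 10.5, 21.3 and 6.13 in ND hearts and of 30.3, 39.4 and 11.2 in HFD hearts. Only ND 2, HFD 1 and HFD 2 were well above background, so the probe entered no fit and no fold is given. HFD 3 was dimmer than ND 2.

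*Fosl2* encodes Fra-2, a further Fos protein. The level of A_55_P1995195 (mm9 chr5:32460076-32460135, plus strand) was 1.91, 1.95 and 1.29 in ND 1, 2 and 3, and 2.84, 3.20 and 1.98 in HFD 1, 2 and 3. The diets did not overlap, but HFD 3 stood only 0.04 log2 units above ND 2. The means were 1.72 ± 0.37 and 2.68 ± 0.63 (SD, n = 3), a log2 difference of 0.96 (SE 0.35) or 1.95-fold. A further *Fosl2* probe, A_51_P507242 (mm9 chr5:32455088-32455147, plus strand), read 4.79, 7.22 and 5.55 intensity units in ND and 16.4, 26.0 and 19.7 in HFD hearts. It was well above background only in HFD 2 and was not fitted.

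**Figure D2:**
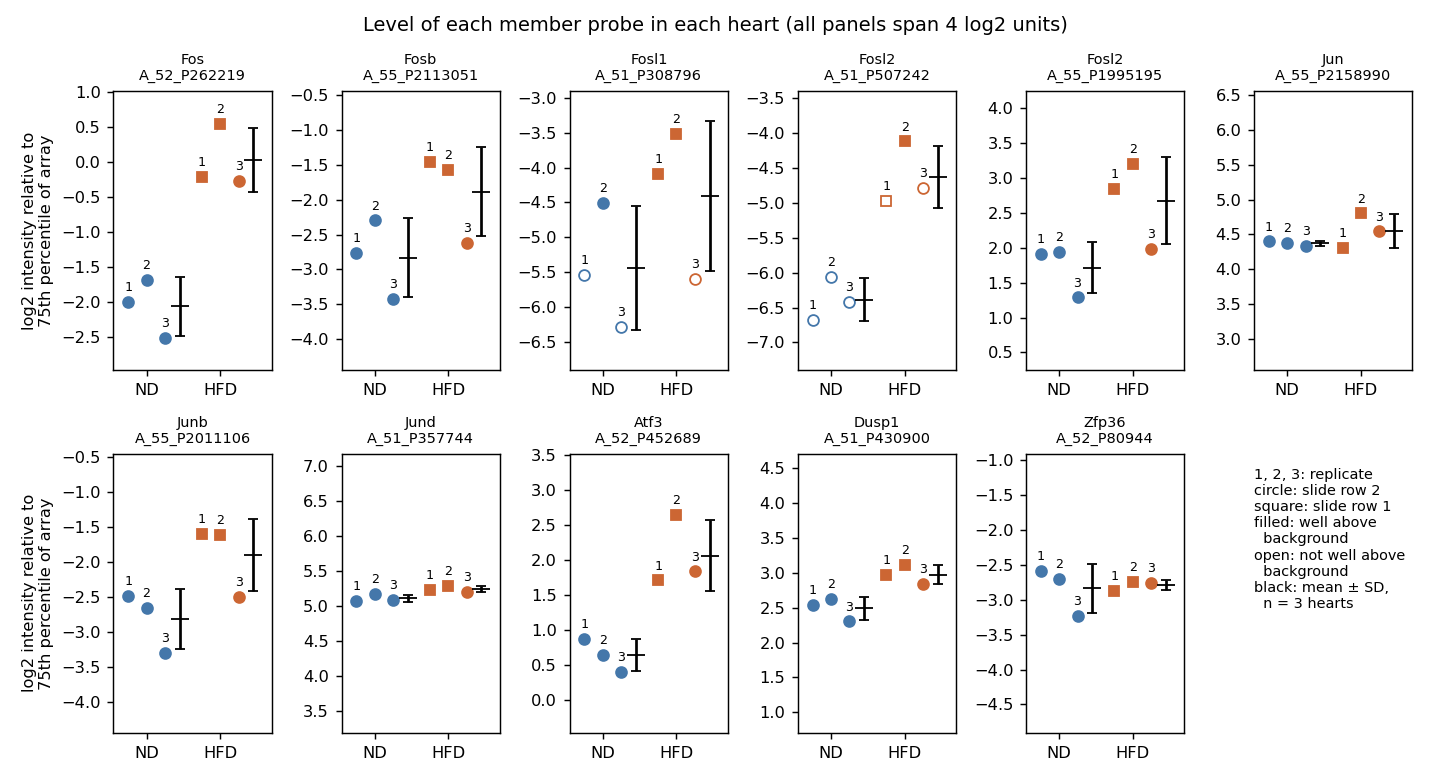
Level of each of the 11 member probes in each heart (y axis, log2 intensity relative to the 75th percentile of the array; x axis, diet); numerals give the replicate, shapes the slide row, open symbols are not well above background, and black bars are mean ± SD of 3 hearts. Among the 9 probes that entered the fit the diets are furthest apart for *Fos* and *Atf3*, while they overlap for *Zfp36*, *Jun*, *Fosb* and *Junb*.

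In the Jun family *Jun* and *Jund* differed little between the diets, and *Junb* by about as much as *Fosb* and *Fosl2*. How alike *Junb* and *Fosl2* were depended on the background correction, as given below. *Jun* encodes the founding Jun subunit, and its probe A_55_P2158990 (mm9 chr4:94716928-94716987, minus strand) had levels of 4.40, 4.38 and 4.34 in ND 1, 2 and 3, and of 4.31, 4.80 and 4.54 in HFD 1, 2 and 3. The ND hearts were nearly alike, and HFD 1 lay below all of them. The means were 4.37 ± 0.03 and 4.55 ± 0.25 (SD, n = 3), a log2 difference of 0.18 (SE 0.13). The HFD hearts spanned 0.49 log2 units and the ND hearts 0.06.

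*Junb* encodes a Jun protein that activates weakly and can restrain Jun. The level of A_55_P2011106 (mm9 chr8:87501881-87501940, minus strand) was -2.48, -2.65 and -3.29 in ND 1, 2 and 3, and -1.60, -1.61 and -2.49 in HFD 1, 2 and 3. HFD 1 and HFD 2 lay above all ND hearts, and HFD 3 was level with ND 1 and just under it. The means were -2.81 ± 0.43 and -1.90 ± 0.51 (SD, n = 3), a log2 difference of 0.91 (SE 0.32) or 1.88-fold.

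*Jund* encodes the Jun protein that is present without a stimulus. The level of A_51_P357744 (mm9 chr8:73224436-73224495, plus strand) was 5.08, 5.17 and 5.08 in ND 1, 2 and 3, and 5.23, 5.29 and 5.20 in HFD 1, 2 and 3. The groups did not overlap, although the gap was 0.03 log2 units and the difference 0.13 (SE 0.07), or 1.09-fold. The SD was 0.05 in ND and 0.04 in HFD hearts.

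*Atf3*, which encodes a stress-induced factor that pairs with Jun proteins and often represses transcription, had the second widest gap among the members that entered the fit. The intensity of A_52_P452689 (mm9 chr1:192994547-192994606, minus strand) was 893, 756 and 629 in ND 1, 2 and 3, and 1683, 2842 and 1941 in HFD 1, 2 and 3. The diets did not overlap, and HFD 2 was the highest, as for *Fos*. The means were 0.64 ± 0.23 and 2.06 ± 0.51 (SD, n = 3), a log2 difference of 1.43 (SE 0.27) or 2.69-fold, and the groups were 0.84 log2 units apart.

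The feedback regulators differed from each other. The *Dusp1* level, from A_51_P430900 (for which the files give the 11 bases mm9 chr17:26642526-26642536, minus strand), was 2.54, 2.62 and 2.30 in ND 1, 2 and 3, and 2.97, 3.11 and 2.84 in HFD 1, 2 and 3. The groups were 0.22 log2 units apart. The means were 2.49 ± 0.17 and 2.97 ± 0.14 (SD, n = 3), a log2 difference of 0.48 (SE 0.12) or 1.40-fold.

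For *Zfp36* the level of A_52_P80944 (mm9 chr7:29161940-29161999, minus strand) was -2.58, -2.70 and -3.23 in ND 1, 2 and 3, and -2.87, -2.75 and -2.76 in HFD 1, 2 and 3. All HFD hearts fell inside the range of the ND hearts. The means were -2.84 ± 0.35 and -2.79 ± 0.07 (SD, n = 3), a log2 difference of 0.04 (SE 0.18). The difference was below 0 under 3 other settings, to -0.15 without ND replicate 3. The place of the probes within the transcripts (exon or UTR) was not analysed here.

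Over the 9 members that entered the fit, the log2 difference was above 0 in 9, against 48.0% of all 27590 probes tested, and the median was 0.91, against -0.01 over all probes. Every HFD heart was above every ND heart in 5 members (*Fos*, *Fosl2*, *Jund*, *Atf3* and *Dusp1*), against 7.92% of all probes. A difference of at least 2-fold was seen in 2 (*Fos* and *Atf3*), against 0.439% of all probes. As the members were chosen with these differences known, nothing is read from these shares. Without HFD replicate 3, 5 of these 9 members were at least 2-fold higher, 7 had no overlap and the median was 1.21. Without ND replicate 1 or without ND replicate 2, 4 were at least 2-fold higher. No share over all probes is given for the fits without a heart. Fewer hearts also make an overlap less likely, so these counts cannot be set against the shares above.

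The hearts of a diet did not take the same place in each gene, but some orders recurred. Among the HFD hearts HFD 2 was the highest in 7 of 9 members and HFD 3 the lowest in 6. Among the ND hearts ND 3 was the lowest in 8. HFD 1, 2 and 3 stood 1.86, 2.62 and 1.80 log2 units above the ND mean for *Fos*, and 1.07, 2.01 and 1.20 for *Atf3*. For *Fosl2* they stood 1.13, 1.49 and 0.27 above, for *Fosb* 1.37, 1.26 and 0.21, and for *Junb* 1.21, 1.20 and 0.32. HFD 3 was thus close to the other HFD hearts in *Fos* and *Atf3* and close to the ND hearts in *Fosl2*, *Fosb* and *Junb*. HFD 3 was also the HFD heart on the slide row of the ND hearts. With row as a term the difference rests on HFD 3 alone, at 1.80 (SE 0.42) for *Fos*, 1.20 (SE 0.40) for *Atf3*, 0.27 (SE 0.32) for *Fosl2*, 0.32 (SE 0.33) for *Junb* and 0.21 (SE 0.43) for *Fosb*, and the median over the members was 0.27. For HFD 1 and HFD 2, row and heart cannot be told apart.

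**Figure D3:**
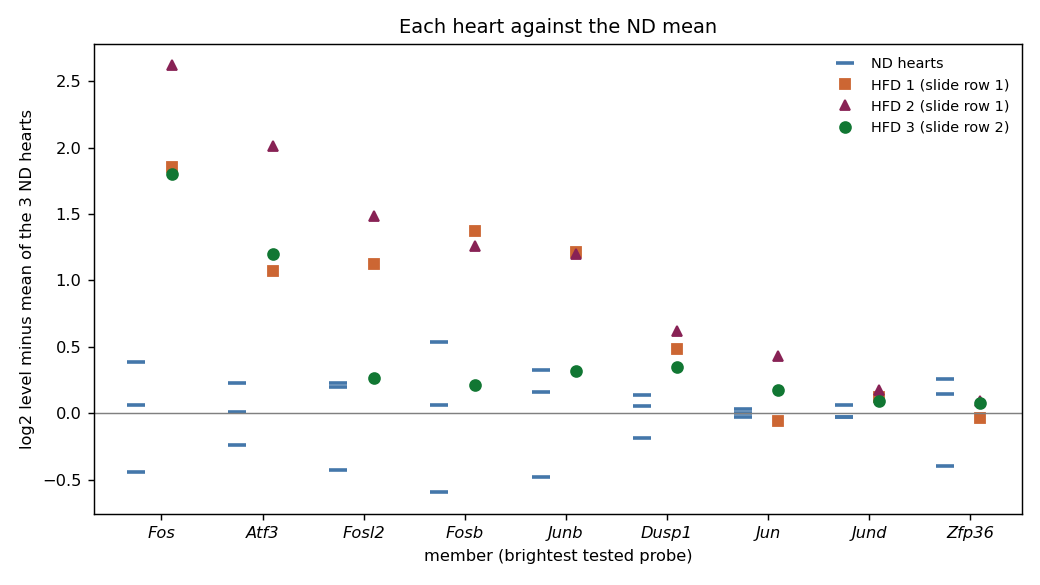
Level of each HFD heart minus the mean of the 3 ND hearts (y axis, log2 units) for the 9 members that entered the fit (x axis); shapes and colours mark the HFD heart, with its slide row, dashes are the ND hearts and 0 is the ND mean. For *Fos* the 3 HFD hearts lie between 1.80 and 2.62, whereas for *Fosb*, *Fosl2* and *Junb* HFD 3 lies between 0.21 and 0.32.

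Markers of other cells moved in part with diet or heart. All 5 erythroid markers tested were lower on average in HFD hearts, with a summed linear level of 577 to 737 in ND and 367 to 514 in HFD hearts, without overlap. The sum over 5 atrial muscle markers was 198, 379 and 981 in ND 1, 2 and 3, and 1149, 56.2 and 582 in HFD 1, 2 and 3. HFD 2, with the lowest sum, had the highest *Fos*. HFD 1 and HFD 3 differed in the sum but little in *Fos* (levels of -0.21 and -0.26). All 4 smooth muscle markers were higher on average in HFD hearts, with sums of 65.8 to 88.3 and 69.2 to 211 and the top value in HFD 1. All 3 neutrophil markers tested were lower on average (52.4 to 57.9 against 48.7 to 53.8), and macrophage sums were 30.3 to 34.2 and 25.2 to 30.6. Endothelial sums were 39.0 to 42.5 and 36.9 to 42.2, and fibroblast sums 336 to 394 and 304 to 391. Those of lymphocytes were 1.03 to 1.15 and 0.958 to 1.13, and those of nerve and glia 2.70 to 3.26 and 2.42 to 3.55. Skeletal muscle sums were 2.72 to 3.33 in ND and 1.85 to 2.44 in HFD hearts, without overlap. White adipocyte sums were 0.613 to 1.30 and 0.147 to 2.03, with the top value in HFD 1. *Mylpf* and *Lep*, which mark these tissues, were not well above background on any array. HFD 2 had the lowest skeletal muscle, white adipocyte, fibroblast, macrophage and nerve and glia sums of all hearts, and the highest cardiomyocyte sum. The part of these cells in the member differences was not tested.

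Genes that act with the members were followed in 9 lists (154 genes with overlap between lists, 153 on the array and 136 tested). The lists were chosen with earlier results of these data known, so their counts are a description. In limma 0 of 136 passed the Benjamini-Hochberg adjustment, against 0.0145% of all probes, 21 were higher and 5 lower at an unadjusted p below 0.05, and the methods' t-test also passed 0 after adjustment. Over all probes 5.24% were higher and 6.63% lower at the same unadjusted level. With slide row as a term 9 pathway genes were higher and 3 lower, against 3.06% and 4.69% of all probes, and 3 were lower without ND replicate 2. Normexp background correction with quantile normalization passed 3 genes (0.217% of all probes), and so did an intensity trend with robust variances (0.294% of all probes): *Dusp2*, *Klf2* and *Nr4a2*, with adjusted p of 0.0309 to 0.0445 and of 0.0422 to 0.0472 (limma), of which *Klf2* and *Nr4a2* are named after their values were seen.

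Of 22 other early response genes tested, 22 had a log2 difference above 0, against 48% of all probes, and the median was 0.53. In limma 11 were higher and 0 lower at an unadjusted p below 0.05, against 5.24% and 6.63% of all probes. At that level 3 were higher with slide row as a term and 6 without ND replicate 3. *Nr4a1*, an orphan nuclear receptor of the immediate early class, had levels of 3.55, 4.14 and 2.71 in ND and 6.02, 6.11 and 4.77 in HFD hearts. Its difference was 2.17 (SE 0.49, limma adjusted p = 0.240). *Egr1*, a zinc finger factor induced through the MAP kinase pathway, differed by 2.02 (SE 0.45, limma adjusted p = 0.237), and the kinase gene *Sik1*, a target of CREB, by 0.98 (SE 0.37, limma adjusted p = 0.400). HFD 1, 2 and 3 stood a median of 0.46, 0.85 and 0.18 above the ND mean over these genes.

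Of 35 MAP kinases and regulators of serum response factor (SRF) tested, 19 were above and 16 below 0, with a median of 0.00. *Mapk14*, the p38α kinase, differed by 0.27 (SE 0.07, limma adjusted p = 0.259) and *Mapk12*, p38γ, by -0.36 (SE 0.08, limma adjusted p = 0.213). Of 22 basic leucine zipper (bZIP) partners 2 were higher and 2 lower at an unadjusted p below 0.05 (median 0.14), and 0 in either direction with slide row as a term. *Nfe2l1* and *Atf7*, which encode leucine zipper factors, differed by 0.33 and -0.35 (SE 0.11 and 0.12), with limma adjusted p of 0.353 and 0.336. Of 7 other MAP kinase phosphatases, *Dusp2* differed by 0.89 (SE 0.11, limma adjusted p = 0.0887) and *Dusp7* by -0.37 (SE 0.10, limma adjusted p = 0.269).

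Of 13 known AP-1 targets tested, 7 were above and 6 below 0 (median 0.05). The collagenase gene *Mmp13* differed by -0.55 (SE 0.16, limma adjusted p = 0.293). Of 13 AU-rich decay factors, relatives of *Zfp36* and their machinery, 0 were higher and 0 lower at an unadjusted p below 0.05 (median 0.03). Of 12 listed mRNAs bound by Zfp36, 6 were tested, and all of these were above 0 (median 0.59). Only 1 of them, *Pim1*, had every HFD heart above every ND heart, against 7.92% of all probes. It was also the only 1 higher at an unadjusted p below 0.05, against 5.24%. *Pim1*, a survival kinase, differed by 0.33 (SE 0.12, limma adjusted p = 0.375).

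Of 11 genes of the integrated stress response, through which *Atf3* can be induced, 4 were higher and 0 lower at an unadjusted p below 0.05 (median 0.18). *Psat1* and *Phgdh*, of serine synthesis, and *Asns*, asparagine synthetase, differed by 0.62, 0.61 and 0.55 (SE 0.10, 0.11 and 0.10), with limma adjusted p of 0.145, 0.164 and 0.158. Of 11 heat shock genes 1, *Dnajb1*, which encodes an HSP40 chaperone, was higher at an unadjusted p below 0.05, by 0.77 (SE 0.21, limma adjusted p = 0.274), and the median was 0.08. With slide row as a term 0 heat shock genes and 0 mRNAs bound by Zfp36 were higher at that level, and 4 genes of the integrated stress response were.

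**Figure D4:**
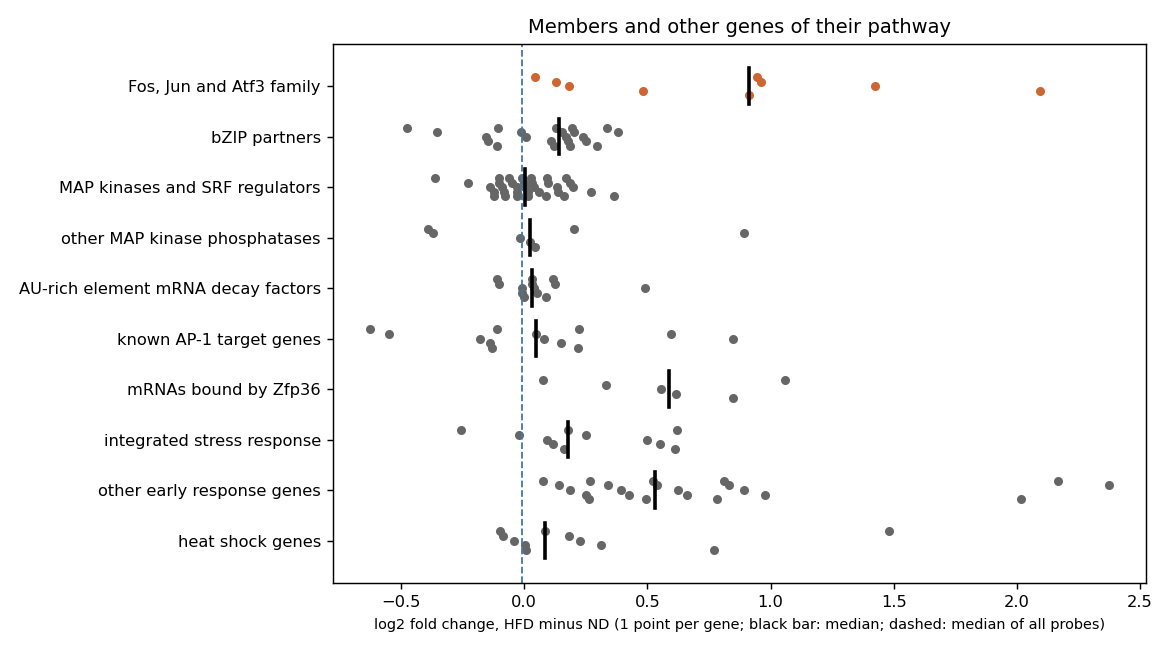
Log2 difference, HFD minus ND, of the genes tested in each list (x axis, log2 units; y axis, the members and the 9 lists, each point a gene); black bars are medians and the dashed line is the median of all probes. The median of the other early response genes was 0.53 and that of the MAP kinases and SRF regulators 0.00.

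The genes whose levels ran most like *Fos* over the 6 hearts were found by the root-mean-square difference of levels centred on their mean, over 19494 genes that are no members. The spread of *Fos* itself was 1.11 log2 units by this measure. Nearest were *Wdfy1* (0.30), *Chrna2* (0.32), *Nr4a1* (0.39), *Mthfd2* (0.45) and 2210409D07Rik (0.45), where smaller values mean closer levels. Among the members *Atf3* was the nearest (0.39), followed by *Fosl2* (0.62), *Junb* (0.66), *Fosb* (0.67), *Dusp1* (0.84), *Jun* (0.996), *Jund* (1.03) and *Zfp36* (1.06). *Wdfy1* had levels of -0.13, -0.16 and -0.28 in ND and 1.81, 1.97 and 1.86 in HFD hearts, a tighter grouping within each diet than that of *Fos*. The measure rests on the same 6 arrays as the comparison of the diets.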

How the data were processed

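The members and the gene lists were chosen with earlier results of these data known. Hearts of 3 ND and 3 HFD mice were grouped by the labels, 1 array each. The authors deposited linear intensities of Agilent Feature Extraction (10.7.1.1 in the file headers, 10.7 in the submitters' processing notes), background-subtracted within each array and not normalized between arrays. Scanner mean and local background intensity, also deposited, served the normexp correction (offset 50). A deposited table of the authors' log2 values ranked each array's probes as the scanner values did (Spearman's rho 1), with column medians of 4.56. How it was made is not given in the sources used here, and it was used as an alternative.

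Control spots and 127 to 190 outlier spots per array were left out, the 75th percentile was subtracted from the log2 intensity and the spots of a probe were averaged. Probes were fitted when well above background on all arrays of a group. limma 3.58.1 (lmFit, eBayes, two-sided) in R 4.3.3 compared the diets, with Benjamini-Hochberg adjustment over 27590 probes at 0.05. Per gene the fitted probe with the highest mean level was used. Named beyond the members were, of each list, up to 3 genes with the largest difference at an unadjusted p below 0.05, any past the adjustment, and the 5 nearest to *Fos*. Of the genes this rule names, 1 is not reported here. Arrays of a group correlated at 0.990 to 0.995 (Pearson's r over probes), so no array repeats another. With 3 hearts a group the number of arrays limits the precision, and an exact permutation test could not go below p = 0.1. In a test on simulated data for this comparison (27551 probes), 76 of 100 probes changed 2-fold and 95 of 100 changed 4-fold were called, with 5 unchanged ones. The simulated noise was normal and independent between probes, with no shift shared by a heart or slide row. These rates therefore need not hold for the measured arrays. Promoter windows came from RefSeq (GRCm38.p6), and probe positions are on mm9, a different build, as the files give them. Alternatives covered the normalization, background, filter, test, probe choice, slide row, replicate block and each left-out heart. The R packages jsonlite 2.0.0 and data.table (version 1.17.8) read the files, and matplotlib 3.10.9 under Python 3.11.15 drew the figures.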

Additional observations from a re-analysis of the deposited data

How the results depend on the processing

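The log2 difference was above 0 under all 20 alternatives for every member of the fit except *Zfp36*, which was above 0 in 17. Several alternatives (the other filters, tests and variances, the replicate block and averaged probes) leave the difference of these members as it was. Both slide row settings give the same difference. As the members were chosen on this difference, nothing is read from its sign. It ranged from 1.61 to 2.28 for *Fos*, from 1.13 to 1.60 for *Atf3*, from 0.35 to 0.55 for *Dusp1*, from 0.27 to 1.31 for *Fosl2*, from 0.32 to 1.21 for *Junb* and from 0.21 to 1.31 for *Fosb*. With normexp and quantile normalization it was 0.56 for *Junb*, 0.57 for *Fosb* and 0.95 for *Fosl2*. The median over the members, 0.91, was 0.56 with normexp and quantile normalization, 0.53 with normexp and the 75th percentile, and 0.27 both with slide row as a term and within slide row 2, where HFD 3 is the only HFD heart and is assumed to vary like the ND hearts. With 1 heart left out at a time it was 0.65 to 1.26, members at least 2-fold higher were 2 to 6, and members without overlap 5 to 8. The upper ends are those without HFD 3 and count *Fosl1*, which passes the filter only there, through the hearts where it is high, while over the other 9 members they were 1.21, 5 and 7. Pathway genes past the adjustment were 3 with normexp and quantile normalization and 3 when limma used a trend on intensity with robust variances. At an unadjusted p below 0.05, 9 were higher and 3 lower with slide row as a term, 11 and 3 within slide row 2, and 14 to 28 were higher and 3 to 7 lower with 1 heart left out (3 lower without ND 2). Samples with the same number deviated together in some pairs only (r of -0.15, 0.15 and 0.19). Samples with unlike numbers gave r from -0.30 to 0.19, as high as the best pair of the same number. Whether the numbers pair the hearts cannot be told from these values, and the labels do not state it. With the replicate block, 26 pathway genes were higher and 3 lower at an unadjusted p below 0.05, and 0 passed the adjustment. No share over all probes is given for the replicate block, the fit within slide row 2 or the fits with 1 heart left out. The counts of pathway genes under these settings therefore cannot separate a shift of the lists from a shift over all probes. Each number holds 1 heart per diet, so the block cannot change the difference of a member (2.09 for *Fos*). The SE changed, from 0.30 to 0.13 for *Fos*, from 0.32 to 0.09 for *Junb* and from 0.07 to 0.08 for *Jund*. The causes of these shifts were not tested. The dim probes of *Fosl1* and the further *Fosl2* probe lay near background, which limits what their values show.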
